A study of Mus musculus with 6 samples.

Results

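A pair of stretches of the mouse genome without annotated genes, one beside the neuropeptide Y receptor gene Npy1r and one beside the heme-binding protein gene Pgrmc2, gave noncoding RNA at a higher level in left atria that overexpressed FOG2. They were taken from the authors' deposited table as all features overlapping chr8:66640000-66880000 or chr3:41080000-41350000 (mm10 build). These 2 windows held 43 of the 34518 listed features, 17 beside Npy1r and 26 beside Pgrmc2. In each window a central block was set against the features around it, its flanks. The block beside Npy1r was chr8:66740411-66772605, with 8 features, and that beside Pgrmc2 was chr3:41181194-41246623, with 23. The flanks held 9 and 3 features. The members were chosen by measured values, the fold changes and calls of the authors' deposited table. Those values therefore describe the blocks here and test nothing. Each block spans exactly a cluster of features called higher, joined over gaps of up to 100 kb. All flank features lie within that distance of their block, so that one called higher would have been part of it. The lack of higher calls in the flanks thus follows from the choice, and the contrast of block and flanks is a description.

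The libraries were made from left atrial RNA of adult mice of the outbred CD1 stock. They formed 2 groups of 3: FOG2 overexpression (FOG2_OE) and wild type (WT). Both groups went without doxycycline for 1 week, and the promoter that drives the transgene is not given in the sources used here. FOG2, encoded by Zfpm2, is a zinc finger protein that binds GATA transcription factors and alters their activity. Ribosomal and polyadenylated RNA were depleted before library preparation. The 6 sample columns held values fitted by the authors' model, which differ within a group only by library size. The spread between libraries, and whether the groups overlapped, could therefore not be read from them. The labels do not say that the libraries of a group came from separate mice, so that the spread behind the authors' p-values may be technical.

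Neuropeptide Y is released with noradrenaline from sympathetic nerves, and Npy1r encodes its Y1 receptor, which couples to inhibitory G proteins and narrows blood vessels. Npy5r, the gene of the Y5 receptor, lies next to Npy1r and is transcribed in the opposite direction. Pgrmc2 belongs to the membrane-associated progesterone receptor family, binds heme, and carries it to the nucleus in mouse fat cells. Long noncoding RNA from intergenic DNA is often made beside regulatory elements or beyond the ends of genes, and much of it has no poly(A) tail.

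No gene of GENCODE M21 and no RefSeq gene overlapped either block. Each block lay close to the start of an annotated long intergenic noncoding RNA that is transcribed away from it. Gm45911 starts 7.47 kb from the block beside Npy1r, on the plus strand. Gm40038 starts on the minus strand, 8.53 kb from the block beside Pgrmc2 in GENCODE and 7.73 kb away in RefSeq. Neither RNA was overlapped by a listed feature. The features of the block beside Npy1r were all listed on the minus strand and those of the block beside Pgrmc2 all on the plus strand, so that each block was listed as running away from its neighbour. Libraries of the kit used were taken to carry no strand mark, yet overlapping features are listed on opposite strands with levels of their own. Near Myl7, MSTRG.11504 on the plus strand stood at 0.641 CPM in WT, and MSTRG.11505 on the minus strand at 3.65 CPM. Whether the listed strands were measured was not tested. Over all features called higher in the authors' deposited table, joined over gaps of up to 100 kb, there were 231 clusters. A long noncoding RNA that starts within 10 kb and points away stood beside 21 of them (9.09%), and beside 13 of the 94 (13.8%) that overlapped no gene.

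The nearest annotated starts are shown by their sequence, since the study concerns the factors GATA4 and TBX5. Capitals mark hexamers of the GATA consensus (AGATAA; the same with T at its start, TGATAA; and both with G at the end) and of the T-box core (AGGTGT), searched on both strands. No matches overlapped. Sequences are from RefSeq on GRCm38.p6, the build also called mm10, and read 5′ to 3′ along the gene's strand. The first is the stretch of 250 bases upstream of Gm40038 (chr3:41173461-41173710, minus strand), which faces the block beside Pgrmc2, and the second is the same stretch for Pgrmc2 (chr3:41083047-41083296, minus strand). For Npy1r, where the window overlaps an annotated first exon, only the surroundings of its 2 matches are shown (chr8:66697295-66697324 and chr8:66697392-66697421, plus strand).
Gm40038: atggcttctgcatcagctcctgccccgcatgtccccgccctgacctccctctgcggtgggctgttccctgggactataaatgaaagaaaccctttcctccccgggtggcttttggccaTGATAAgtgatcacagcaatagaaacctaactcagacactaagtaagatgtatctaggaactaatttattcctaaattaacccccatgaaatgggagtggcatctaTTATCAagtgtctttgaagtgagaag
Pgrmc2: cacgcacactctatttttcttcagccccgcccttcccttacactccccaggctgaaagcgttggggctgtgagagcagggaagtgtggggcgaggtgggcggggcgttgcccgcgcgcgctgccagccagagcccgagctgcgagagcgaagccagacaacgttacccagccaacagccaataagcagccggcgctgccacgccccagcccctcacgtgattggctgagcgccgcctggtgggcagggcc
Npy1r T-box: gttgtgcatccgAGGTGTtgggaggaggct
Npy1r GATA: tttaagggggcgtctcttcCTATCTtcctc

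Gm40038 had 2 GATA matches and no T-box match in this window, Npy1r had 1 of each, and Pgrmc2 and Npy5r had none. Of 32851 RefSeq promoter windows of this length, 26.5% held a GATA match, 11.8% a T-box match and 3.57% both. These windows ranged in G and C content from 67.2% at Pgrmc2 to 47.2% at Gm40038, with 53.6% at Npy1r and 58.8% at Npy5r; the median of all windows was 52.4%. Gm45911 was not matched in the sequence table, and the sequences of the blocks were not analysed here.

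The block beside Npy1r was led by MSTRG.80550, which is listed over 24115 bases, 51.3 kb from the Npy1r start. Its fitted counts were 2452, 2230 and 2613 in the FOG2_OE libraries 1 to 3, against 160.4, 176.7 and 185.4 in the WT libraries 1 to 3. Within a group these 3 values differ by library size alone, and the fitted values of the 2 groups lie far apart. In CPM, the usual scaling of counts by effective library size, MSTRG.80550 stood at 30.8 CPM in FOG2_OE and at 2.25 CPM in WT. The feature ranked 83rd of all listed features by level in FOG2_OE and 1614th in WT. In the authors' deposited table its log2 fold change was 3.77, with a standard error of 0.36 that was solved from the likelihood ratio of that table. It held 91.0% of the summed level of the block in FOG2_OE and 91.8% in WT.

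The other 7 features of this block were short pieces of 127 to 2790 bases that filled its lower end, with gaps of 0.254 to 0.649 kb between neighbours. MSTRG.80529, the longest, had fitted counts of 130.3, 118.5 and 138.8 in FOG2_OE and 9.20, 10.1 and 10.6 in WT. The authors' deposited table gave it a log2 fold change of 3.64 (implied SE 0.48). MSTRG.80535 stood at 0.603 CPM in FOG2_OE and 0.0641 CPM in WT, with a log2 fold change of 3.20 (implied SE 0.63) in the authors' deposited table. These pieces, with fitted counts above 3 in every library, and MSTRG.80550 had log2 folds of 3.20 to 3.77.

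The remaining 5 pieces were nearly absent from WT, and their fold changes are imprecise. MSTRG.80525, MSTRG.80527 and MSTRG.80528 were fitted at 0 in WT and stood at 0.0586, 0.147 and 0.134 CPM in FOG2_OE. Against a floor of 3 counts over the WT group (0.0129 CPM, counting error only), they were at least 4.53-fold, 11.4-fold and 10.3-fold higher in FOG2_OE. MSTRG.80526 had 54 fitted counts over the FOG2_OE group and 1 over the WT group, a ratio of 53.1 (95% exact counting interval 9.08 to 2124). MSTRG.80530 was alike, with 53 and 1 fitted counts and a ratio of 51.8 (95% exact counting interval 8.91 to 2086). The intervals of both include the fold of MSTRG.80550, which was 13.7.

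Summed over its 8 features, the block beside Npy1r stood at 33.8 CPM in FOG2_OE and 2.46 CPM in WT. Without MSTRG.80550 the sums were 3.03 and 0.202 CPM, a fold of 15.0. All 8 features were called higher in the authors' deposited table (adjusted p under 0.05), where 1.16% of all 34518 features were called higher and 4.65% lower; since the calls chose the block, nothing is read from this count.

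**Figure D1:**
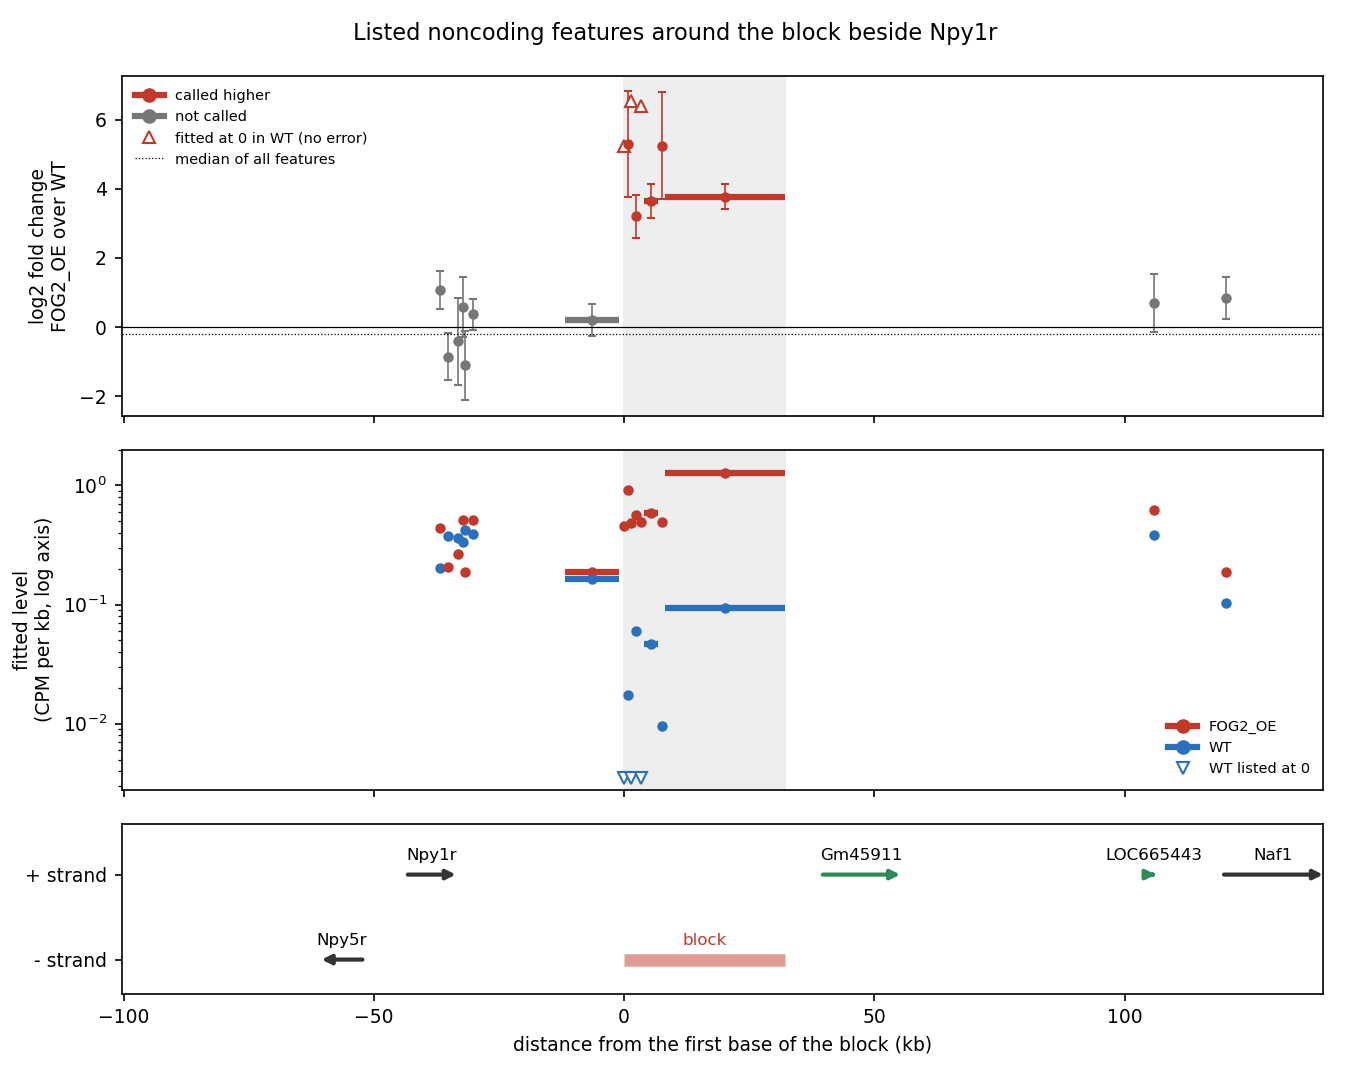
Listed features around the block beside Npy1r, by distance from the first base of the block (shaded). The top panel gives the log2 fold change of FOG2_OE over WT from the authors' deposited table with the implied SE. The middle panel gives the fitted level as CPM per kb of listed span in each group. The bottom panel gives annotated genes by strand, with protein-coding genes in black. The 8 block features sit between 3.20 and 6.54, and the 9 flank features between -1.11 and 1.08.

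The lower edge of this block is the start of its first feature called higher. It follows from the calls and was not located independently. MSTRG.80534, a feature of 10708 bases that ends 1.07 kb below the block and is listed on the same strand, had fitted counts of 161.6, 147.0 and 172.2 in FOG2_OE and 125.5, 138.3 and 145.0 in WT. In the authors' deposited table its log2 fold change was 0.20 (implied SE 0.46). Per kb of listed span, MSTRG.80534 was at 0.189 CPM in FOG2_OE and 0.165 CPM in WT. By the same measure MSTRG.80550 was at 1.28 CPM in FOG2_OE and 0.0934 CPM in WT. By listed span the flank feature was the denser of this pair in WT and the sparser in FOG2_OE. Exons are not given, so that levels per transcribed length are not known. The first feature inside the block, MSTRG.80525, was among the pieces fitted at 0 in WT, and had 13.9 fitted counts over the FOG2_OE group.

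Nearer to Npy1r, 6 flank features lay over the gene or just past its end, and none was called in the authors' deposited table. A higher call this close would have placed a feature in the block. MSTRG.80533 lies within an Npy1r exon, over 227 coding and 155 untranslated bases, and is listed on the opposite strand. It stood at 0.0786 CPM in FOG2_OE and 0.143 CPM in WT. MSTRG.80532 covers 147 untranslated and 16 coding bases of an Npy1r exon among its 591 bases, and stood at 0.257 CPM in FOG2_OE, against 0.121 CPM in WT. The authors' deposited table gave log2 fold changes of opposite sign, 1.08 (implied SE 0.54) for MSTRG.80532 and -0.85 (implied SE 0.69) for MSTRG.80533. Both are listed on the strand opposite to Npy1r. Whether that strand was measured was not tested, so that reads of the Npy1r mRNA and of an antisense RNA were not told apart here.

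Past the 3′ end of Npy1r lay MSTRG.80521, MSTRG.80522, MSTRG.80523 and MSTRG.80524, which the authors' deposited table gave log2 fold changes of -1.11 to 0.59. MSTRG.80524 was the most abundant of them, at 0.480 CPM in FOG2_OE and 0.369 CPM in WT. No listed feature overlapped Npy5r. On the far side of the block, no feature was listed for 73.6 kb, a gap that includes all of Gm45911. Next came MSTRG.80536 over the pseudogene LOC665443 and MSTRG.80561 over the first exon of Naf1, which encodes an assembly factor of small nucleolar ribonucleoproteins. Both were uncalled in the authors' deposited table, with log2 fold changes of 0.69 (implied SE 0.84) and 0.84 (implied SE 0.60). Over all 9 flank features the summed level was 3.22 CPM in FOG2_OE, against 2.68 CPM in WT, a fold of 1.20.

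The block beside Pgrmc2 was made of many pieces, none of which dominated. MSTRG.52562 is listed over 62820 bases, and 20 of the other 22 features lie inside its span. The table does not give exons, so that its level per length is not known. Its fitted counts were 165.8, 150.8 and 176.6 in the FOG2_OE libraries 1 to 3 and 23, 25 and 26 in the WT libraries 1 to 3. It stood at 2.08 CPM in FOG2_OE and 0.319 CPM in WT, and the authors' deposited table gave a log2 fold change of 2.70 (implied SE 0.49). By level it ranked 1515th of all listed features in FOG2_OE and 7318th in WT. It held 17.5% of the summed level of the block in FOG2_OE and 14.1% in WT.

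MSTRG.52580, the longest piece inside it with 4217 bases, was about as abundant in FOG2_OE and more abundant in WT. Its fitted counts were 165.6, 150.7 and 176.5 in FOG2_OE and 42.8, 47.2 and 49.5 in WT. In the authors' deposited table its log2 fold change of 1.79 (implied SE 0.47) was the lowest among the called features of this block. MSTRG.52577 (1.12 CPM in FOG2_OE, 0.175 CPM in WT) and MSTRG.52574 (1.03 and 0.246 CPM) were the next most abundant. At the upper edge, MSTRG.52583 and MSTRG.52454 lie beyond the span of MSTRG.52562. The authors' deposited table gave them log2 fold changes of 2.59 (implied SE 0.53) and 3.51 (implied SE 0.85).

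Of the 23 features, 16 were called higher in the authors' deposited table, against 1.16% of all features. The 7 that were not called also had log2 fold changes above 0 in the authors' deposited table, from 1.32 at MSTRG.52563 to 3.58 at MSTRG.52572. All 7 were short, at 126 to 305 bases, with mean fitted counts under 10 per library. MSTRG.52572 missed the threshold (adjusted p = 0.0578 in the authors' deposited table) with 29 fitted counts over the FOG2_OE group and 2 over the WT group, a ratio of 14.0 (95% exact counting interval 3.59 to 123). MSTRG.52581 just passed it (adjusted p = 0.0233 in the authors' deposited table), with 0.219 CPM in FOG2_OE and 0.0346 CPM in WT. MSTRG.52582 had 16 and 3 fitted counts, a ratio of 5.23 (95% exact counting interval 1.49 to 27.9). The others that were not called were MSTRG.52569, MSTRG.52570, MSTRG.52575 and MSTRG.52578, for which the authors' deposited table gave log2 fold changes of 1.72 to 2.70. MSTRG.52567 was the one feature fitted at 0 in WT, and at 0.0971 CPM it was at least 7.51-fold higher in FOG2_OE, against the same floor.

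Of the called features, MSTRG.52564, MSTRG.52565, MSTRG.52566, MSTRG.52568, MSTRG.52571, MSTRG.52573, MSTRG.52574, MSTRG.52576, MSTRG.52577 and MSTRG.52579 had in the authors' deposited table log2 fold changes of 2.06 to 3.01. The block as a whole summed to 11.9 CPM in FOG2_OE, against 2.27 CPM in WT, a fold of 5.26, and to 9.84 and 1.95 CPM without MSTRG.52562, a fold of 5.05. Whether reads in the span of MSTRG.52562 were counted for it and for the pieces inside it was not tested.

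**Figure D2:**
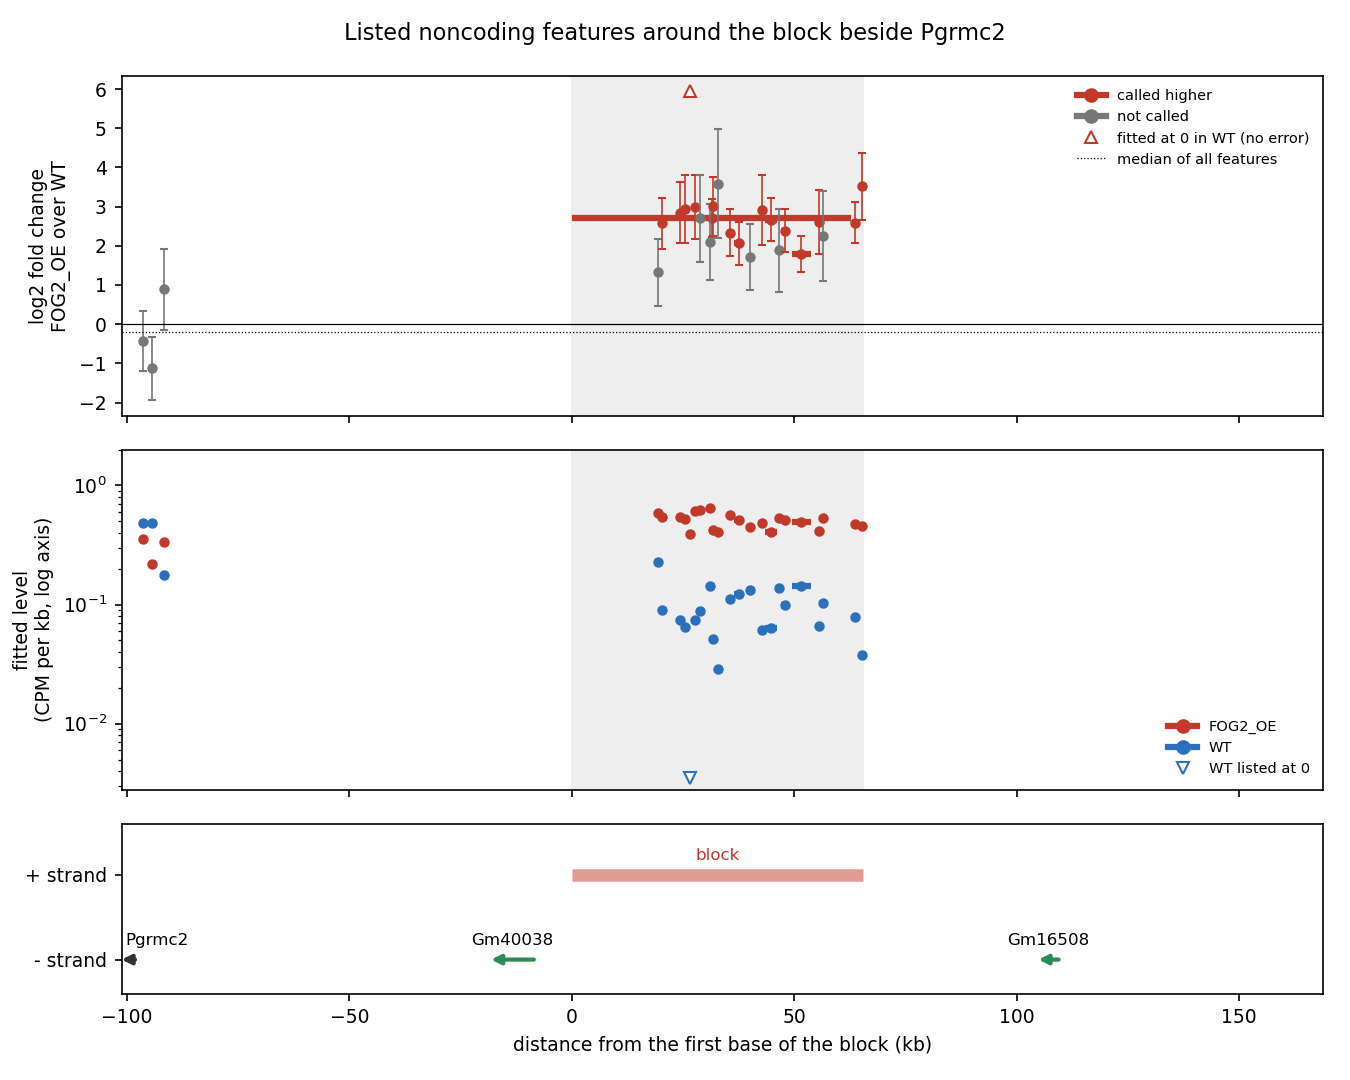
Listed features around the block beside Pgrmc2, drawn as for Npy1r; MSTRG.52562, the long bar in the top panel, is left out of the middle panel because its exons are not known. The 23 block features sit between 1.32 and 5.95 on the log2 scale, and the 3 flank features between -1.13 and 0.89.

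Per listed length, the block beside Pgrmc2 was even in FOG2_OE. Its 22 features other than MSTRG.52562 ranged from 0.393 to 0.645 CPM per kb in FOG2_OE, a 1.64-fold range, and from 0 to 0.229 CPM per kb in WT. The medians were 0.516 CPM per kb in FOG2_OE and 0.0836 in WT. All features of the table had medians of 0.357 CPM per kb in FOG2_OE and 0.420 in WT, so that these pieces stood above the middle of the table in FOG2_OE and far below it in WT. The 7 short pieces beside Npy1r did likewise, with medians of 0.492 CPM per kb in FOG2_OE and 0.00949 in WT. The blocks were chosen by fold change, and pieces near 0 in WT may be listed through FOG2_OE alone. Nothing is therefore read from where these pieces stand in the table. The first 19.4 kb of the block beside Pgrmc2 held no listed feature besides the span of MSTRG.52562.

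Around this block little was listed. Within the window the flanks were MSTRG.52448, MSTRG.52452 and MSTRG.52451, which lie 1.63 to 6.35 kb upstream of the Pgrmc2 start and 91.6 to 96.2 kb from the block. They summed to 0.239 CPM in FOG2_OE, against 0.321 CPM in WT. In the authors' deposited table they had log2 fold changes of -0.43 (implied SE 0.76), -1.13 (implied SE 0.81) and 0.89 (implied SE 1.03), and none was called. No feature overlapped Pgrmc2 or the noncoding RNA genes Gm40038 and Gm16508 on either side of the block. Above the block the next listed feature was 366 kb away, in Jade1. Listed features therefore lay much farther from the edges of this block than from the lower edge of the block beside Npy1r.

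**Figure D3:**
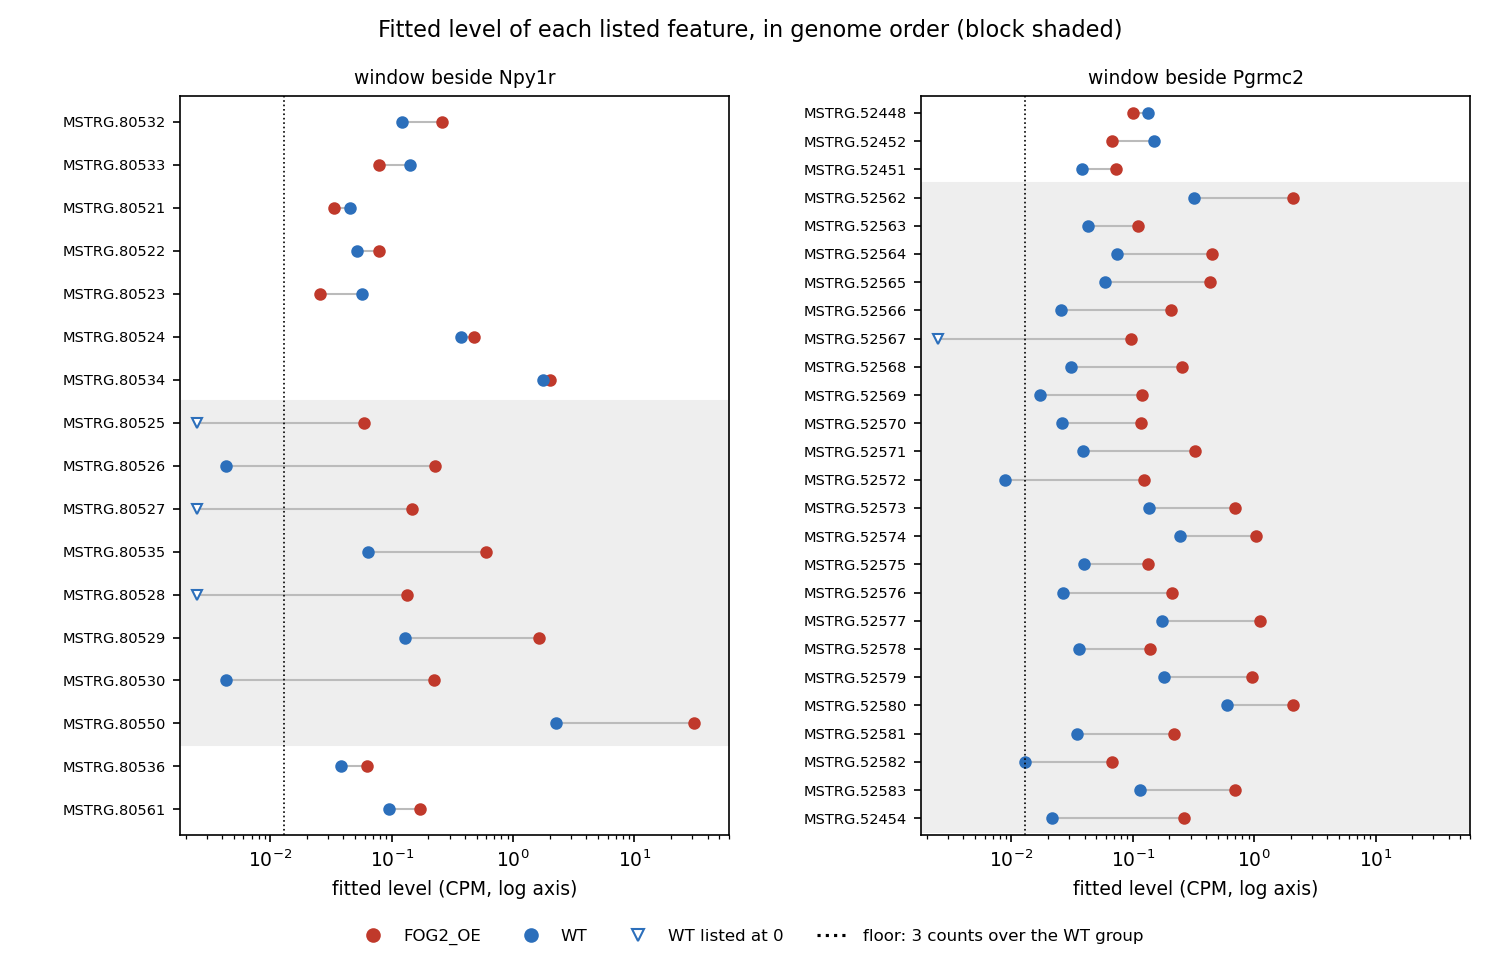
Fitted level of each of the 43 features in genome order, as CPM on a log axis, in FOG2_OE (red) and WT (blue), with block features shaded. In the shaded rows the FOG2_OE point lies right of the WT point in all 31, and in the other rows in 7 of 12.

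Among the 31 block features together, 24 were called higher and none lower in the authors' deposited table, against 1.16% and 4.65% of all features. All 15 with a mean fitted count of at least 10 per library were called, and 9 of the 16 below that. The calls chose the blocks, so that nothing is read from these counts. Other call rules gave other counts beside Npy1r and Pgrmc2: at an adjusted p under 0.01, 7 and 14 were called higher (0.608% of all features higher, 2.69% lower). With the median ratio centred at 1, 8 and 17 were (1.62% higher, 3.47% lower), and among features of at least 10 mean fitted counts 3 and 12 (1.72% higher, 6.91% lower). With likelihood ratios read on an F distribution of 10 residual degrees of freedom, 5 and 2 were called (0.203% higher, 1.07% lower), and of 4 degrees, none was (0% of all features either way). At an unadjusted p under 0.05 in that last reading, 8 and 17 passed, against 1.53% higher and 5.58% lower of all features. Relative to the log2 fold of the block's summed level, each of the 27 features with an implied SE lay within 2 of its own SE. Within 1 SE lay 3 of 5 beside Npy1r and 18 of 22 beside Pgrmc2. Each sum includes the feature itself, and MSTRG.80550 holds 91.0% of the Npy1r sum in FOG2_OE. Features fitted at 0 in WT have no SE and were left out, so that nothing is read from this closeness. The pieces of a block share libraries and lie close together. Whether they belong to a single transcript was not tested, and they do not count as independent observations.

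The variation between libraries that the authors' likelihood ratios imply is a value of their model, not a measured spread. Solved as a biological coefficient of variation, it ran in the blocks from 30% at MSTRG.80550 to 78.3% at MSTRG.52572. The median was 48.5% in the blocks and 51.9% in the flanks. For MSTRG.80550 the median of features of like abundance was 21.4%. Of the 31 block features, 27 exceeded the median of features of like abundance, as did 7 of the 12 flank features. Which library gave rise to this variation cannot be read from fitted values.

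**Figure D4:**
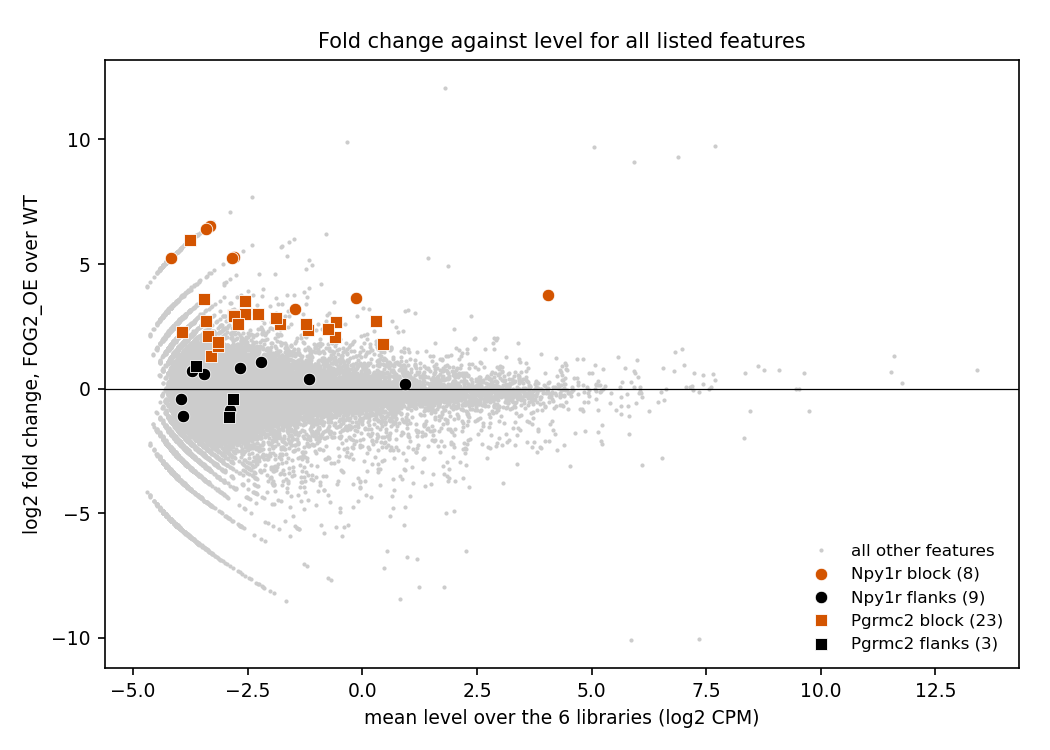
Log2 fold change of FOG2_OE over WT against mean log2 CPM for all features of the authors' deposited table, with block features in orange and flank features in black (circles, Npy1r window; squares, Pgrmc2 window). MSTRG.80550 is the rightmost orange circle, at 3.77, and the flank points lie in the grey cloud of all features, whose median is -0.21.

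Among the 231 clusters of higher features, the block beside Pgrmc2 was second by number of called features (16) and the block beside Npy1r came next (8), after a cluster of 44 in Hdac9. No other cluster had 8 or more. By the difference in summed level between the groups, FOG2_OE minus WT, the block beside Npy1r ranked 7th with 31.4 CPM and the block beside Pgrmc2 17th with 9.65 CPM. Clusters are ranked here by the values that define them, as a description.

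Few other genes of the NPY system were linked to a listed feature (one that overlaps the gene or is intergenic with its nearest protein-coding start there, within 100 kb). Of 9 genes, 2 were: Npy1r, through 15 features of the window above, and Dpp4, the peptidase that cleaves neuropeptide Y. The 2 features of Dpp4 were not called in the authors' deposited table, where they had log2 fold changes of -0.77 and -0.76. For Npy, Pyy, Ppy, Npy2r, Npy4r, Npy5r and Npy6r no feature was linked.

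Of 20 genes of the PGRMC family, heme handling and progestin receptors, 13 were linked to 71 features outside the window. None of the 71 was called higher in the authors' deposited table and 19 were called lower, against 4.65% of all features; the median log2 fold change of the 71 was -1.0, against -0.21 for all. All 19 belonged to Paqr9, of the family of membrane progestin receptors, whose 28 features summed to 1.86 CPM in FOG2_OE, against 8.90 CPM in WT. With the median ratio of all features centred at 1, 15 were called lower, against 3.47% of all features. Of the other 43 features none was called, and their median log2 fold change was -0.36. They were linked to Alas2, Fech and Hmox2, enzymes of heme synthesis and breakdown, to the heme transporters Slc48a1 and Flvcr1, and to Bach1, Nr1d1 and Nr1d2, repressors that bind heme. The rest were linked to Pgrmc2 itself, its relatives Nenf and Cyb5d2, and Paqr5, a membrane progestin receptor.

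The targeted gene followed the labels: MSTRG.29831, within Zfpm2, stood at 416 CPM in FOG2_OE and 0.484 CPM in WT. All 6 atrial muscle markers had linked features (30). In the authors' deposited table none of these was called higher and 16 were called lower, against 4.65% of all features, and 12 after centring, against 3.47%. They summed to 15.4 CPM in FOG2_OE, against 42.3 CPM in WT. The features called lower were linked to Kcnj3 (9), Myl7 (3), Sln (3) and Dkk3 (1). Features linked to the same gene do not count as independent observations. None was called for Myl4 (2.94 CPM in FOG2_OE, 2.59 CPM in WT) or Nppa (1.30 CPM in FOG2_OE, 1.11 CPM in WT). Neuronal markers (11 features of 3 of 7 genes, none called) summed to 1.22 CPM in FOG2_OE, against 1.65 CPM in WT, and no feature was linked to Npy, Th, Tubb3 or Rbfox3. Endothelial markers (13 features, none called) summed to 1.5 CPM in FOG2_OE, against 1.17 CPM in WT, those of fat (13, none called) to 1.79 and 2.53 CPM, and those of leukocytes (3, none called) to 1.23 and 1.80 CPM. Smooth muscle markers gave 4 features, 0.530 CPM in FOG2_OE and 0.337 CPM in WT, with 1 called higher, against 1.16% of all features. That was MSTRG.43342 at Acta2, with 0.221 CPM in FOG2_OE, against 0.00433 CPM in WT. The other 3 were not called and summed at Cnn1 to 0.154 CPM in FOG2_OE, against 0.137 CPM in WT, and at Myh11 to 0.155 CPM in FOG2_OE, against 0.196 CPM in WT. Ventricular muscle markers gave 3 features of Myh7, none called, with 0.207 CPM in FOG2_OE and 0.250 CPM in WT. Of the other markers, Vwf of endothelium, Ptprc of leukocytes, Plin1 and Ucp1 of fat, and Irx4 and Myl2 of ventricular muscle had no linked feature. All these sums are of listed features linked to the markers by position, many of them intergenic, and are not levels of the marker mRNAs. In bulk tissue, fewer cells of a type and less RNA per cell cannot be told apart. The part of cell makeup in the levels of the blocks was not tested.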

How the data were processed

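The authors' deposited table listed 34518 features with positions, log2 fold changes (FOG2_OE over WT), mean log2 CPM, the likelihood ratio as a score, and p-values before and after adjustment. The submitters' processing notes list, without roles, the mm10 build and the tools STAR, edgeR, deepTools and HTSeq 0.6.0. The 6 sample columns were constant multiples of each other within a group (largest relative spread 1.8e-14). Read as a model fit, they allowed no count test, and the authors' likelihood ratio test, Benjamini-Hochberg adjusted over all features, was used. Effective library sizes, solved from 718 features above 300 fitted counts, were 72464183 to 84907173 reads in FOG2_OE and 71180401 to 82251201 in WT. Negative binomial dispersions were solved from the likelihood ratios (28194 features; others took the median at like abundance) and gave standard errors and calls at another scale. Positions are printed counting from 1, since deposited starts count from 0 (1 below RefSeq for 96 of 102 symbols). The median feature had 7.22 fitted counts per library. Floors are 3 counts over a group, and intervals cover counting error only. The rule named every block feature, the nearest, called or gene-overlapping flank features, and called list members. Members and lists were chosen with earlier results of these data known. Tools were pandas 2.3.3, scipy 1.17.1 and numpy 2.4.6 under Python 3.11.15, with figures by matplotlib 3.10.9. Block sequences were not analysed here.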

Additional observations from a re-analysis of the deposited data

How the results depend on the processing

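The summed log2 fold of the block beside Npy1r was 3.78 and that beside Pgrmc2 2.39. These and the sums of the flanks (0.26 beside Npy1r, -0.43 beside Pgrmc2) moved by less than the implied standard error of the sum when the median ratio was centred at 1, features under 10 mean fitted counts or the most abundant feature were left out, or, for the flanks beside Npy1r, which alone hold both listed strands, one strand was kept. That standard error is the mean of the single-feature errors weighted by level, which takes the errors as fully shared. Features at 0 in WT were left out of it. It is a yardstick for size only and does not measure the effect of a change in processing. Leaving out features under 10 counts could not be run for the flanks beside Pgrmc2, where all 3 lie under it. Every block feature lay wholly inside its block. The median of single features beside Npy1r was 5.24, because 3 features stand at 0 in WT. With these at their bound of 3 counts, an alternative chosen after seeing the data, it was 3.58. The main calls were 8 beside Npy1r and 16 beside Pgrmc2, against 1.16% of all features called higher. With the median ratio centred at 1 there were 8 and 17 (1.62% of all higher). At an adjusted p under 0.01 in the authors' deposited table there were 7 and 14 (0.608%). Among features of at least 10 mean fitted counts, where fewer features were tested, there were 3 and 12 (1.72%). With likelihood ratios read on an F distribution of 10 residual degrees of freedom, 5 and 2 were called (0.203%). With 4 degrees, 0 and 0 were called (0%), and 8 and 17 passed at an unadjusted p under 0.05. Over all features that last reading gave 529 higher and 1927 lower, with a smallest adjusted p of 0.252. No paired analysis was possible because the sample columns hold fitted values, and leaving out replicates was not run for the same reason.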
